A study of Mus musculus with 15 samples.

Results

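Rpl3l and Rpl3, and Rpl22l1 and Rpl22, are paralog pairs of ribosomal protein genes, which were followed here through the left ventricle after myocardial infarction in mice. They are the 4 of 54532 genes in the expression table that carry these symbols, and each occurs once. The genes were chosen by their FPKM levels in these Sham, MI and GSK libraries, so their levels, ratios and differences are given as a description without a test. The libraries came from female C57BL/6JRj mice of 12 to 18 weeks, 8 days after surgery, in 3 groups of 5 libraries. In the GSK group the EZH2 inhibitor GSK-343 was injected into the abdomen every day at 20 mg/kg, from 6 h after surgery to day 7. That these hearts were infarcted too was read from the treatment protocol, because the sample names give only the compound. In the MI group the left coronary artery was tied off permanently and the animals received the vehicle, 20% Captisol. The Sham group had the operation without infarction and the same vehicle. The inhibitor was given to the whole animal, and Sham replicates 1 and 2 each mix the RNA of 2 animals. No sham-operated group with the inhibitor was analysed here.

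Ribosomal protein L3 is a core protein of the large ribosomal subunit and lies close to the centre where peptide bonds are formed. Rpl3 supplies it in nearly all tissues, and Rpl3l encodes a paralog made in heart and skeletal muscle that takes the place of L3 in ribosomes there. Mice that lack Rpl3l carry more Rpl3 in the heart, and variants of human RPL3L are known from inherited cardiomyopathy. Ribosomal protein L22 is an RNA-binding protein of the large subunit that ribosomes can do without. Rpl22l1 encodes its paralog, and in mouse cells L22 holds the level of Rpl22l1 mRNA down.

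The paralogs are far enough apart in sequence to be told apart by 150-base reads. Rpl3l (ENSMUSG00000002500) lies on mm10 chromosome 17, 24727820 to 24736143, plus strand, and its main transcript has 10 exons and 407 coding codons. Rpl3 (ENSMUSG00000060036) lies on chromosome 15, 80077791 to 80091868, minus strand, with 10 exons and 403 codons. Their coding sequences were identical at 899 of 1202 aligned bases (74.8%), and the longest identical run was 22 bases. None of the 1060 stretches of 150 bases in the Rpl3 coding sequence occurs in that of Rpl3l. Rpl22l1 (ENSMUSG00000039221) lies on chromosome 3, 28805436 to 28807424, plus strand, with 4 exons and 122 codons. Rpl22 (ENSMUSG00000028936) lies on chromosome 4, 152325742 to 152334071, plus strand, with 4 exons and 128 codons. This second pair was identical at 256 of 343 aligned coding bases (74.6%), again with no shared stretch of 150 bases. Where Rpl3 reads could stray is the processed pseudogene Rpl3-ps1 on chromosome X, which is identical to the Rpl3 coding sequence at 1207 of 1209 bases (99.8%) and shares 853 of its 1060 stretches of 150 bases. The first 90 coding bases of the Rpl3 set show both distances. Capitals mark bases that differ from Rpl3, which are 21 in Rpl3l and 1 in Rpl3-ps1 (GENCODE vM21 transcripts).
Rpl3: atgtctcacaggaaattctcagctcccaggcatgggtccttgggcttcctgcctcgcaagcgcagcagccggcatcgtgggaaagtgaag
Rpl3l: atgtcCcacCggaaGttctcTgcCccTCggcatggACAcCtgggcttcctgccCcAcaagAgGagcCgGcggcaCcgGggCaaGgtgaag
Rpl3-ps1: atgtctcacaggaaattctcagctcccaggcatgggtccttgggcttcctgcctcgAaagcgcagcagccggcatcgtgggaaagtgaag

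For the second pair, coding bases 67 to 156 of Rpl22 are set against the matching stretch of Rpl22l1. Capitals mark the 24 bases that differ from Rpl22.
Rpl22: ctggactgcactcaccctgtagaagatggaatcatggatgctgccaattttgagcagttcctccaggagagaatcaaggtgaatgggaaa
Rpl22l1: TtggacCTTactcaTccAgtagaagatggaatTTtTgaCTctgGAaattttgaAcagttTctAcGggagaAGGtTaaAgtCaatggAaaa

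Between 21.5 M and 26.8 M fragments per library were assigned to genes. Levels are in FPKM, fragments per kilobase of gene length, which in this table are scaled to the median gene of each library, so that a single fragment is worth 0.0357 to 0.0478 FPKM per kb. Behind the values stood 483 to 7625 fragments per library for Rpl3l, 2985 to 12946 for Rpl3, 119 to 626 for Rpl22l1 and 2434 to 4601 for Rpl22. All 4 genes passed the filter of 1 FPKM in at least 5 libraries that left 12585 genes for the tests. GSK replicates 3 and 4 and MI replicate 4 stood apart from the rest of their groups. Mitochondrially encoded transcripts took 46.4%, 48.7% and 40.6% of their FPKM, and the range over all libraries of a group was 31.8% to 48.7% in GSK, 23.2% to 40.6% in MI and 41.2% to 42.2% in Sham hearts. In a bulk sample, fewer cells of a type and less RNA per cell cannot be told apart.

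The balance between Rpl3l and Rpl3 differed between the groups. The ratio of Rpl3l to Rpl3 in FPKM was 0.662, 1.47, 1.17, 1.19 and 0.474 in the 5 GSK libraries, 0.865, 0.0721, 0.281, 0.190 and 0.453 in the MI libraries, and 2.82, 3.69, 2.63, 3.11 and 3.93 in the Sham libraries. Every Sham library held more Rpl3l than Rpl3 per base of gene length and every MI library less, while GSK libraries fell on both sides of equality. On the log2 scale the ratio averaged -0.13 ± 0.68 in GSK, -1.88 ± 1.35 in MI and 1.68 ± 0.25 in Sham hearts (SD, n = 5 each). The difference of the log2 ratio was -3.55 ± 0.61 for MI minus Sham, a ratio 11.7-fold lower in MI, and -1.81 ± 0.32 for GSK minus Sham, a ratio 3.50-fold lower in GSK (SE from the SDs of both groups). Neither infarcted group overlapped Sham. For GSK minus MI the difference was 1.75 ± 0.67, and those groups overlapped through MI replicate 1. The highest of the other 4 MI libraries, at 0.453, lay just below the lowest GSK library, at 0.474. Without MI replicate 1 the difference for GSK minus MI was 2.16, and without MI replicate 2 it was 1.27. Since MI libraries enter both MI minus Sham and GSK minus MI, these differences are not independent of each other.

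**Figure D1:**
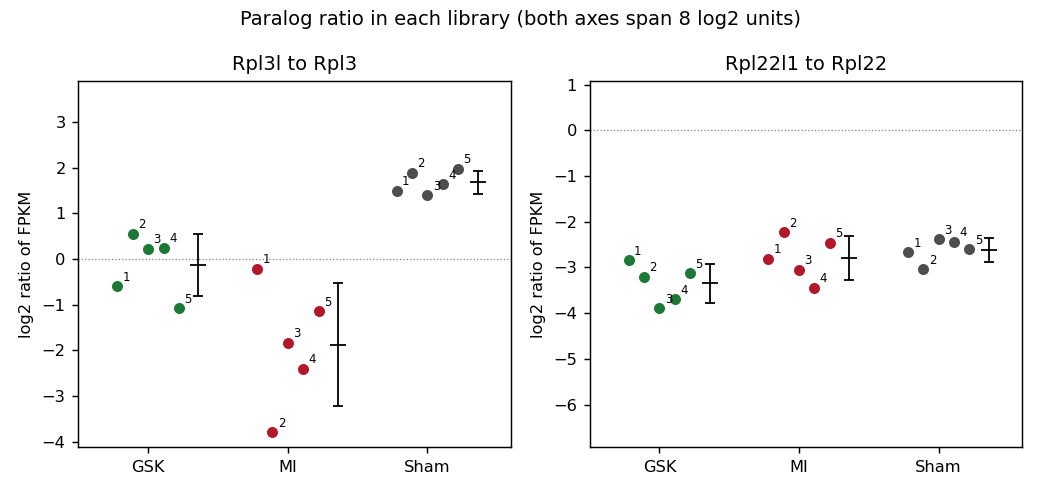
Log2 ratio of FPKM in each library for Rpl3l to Rpl3 (left) and Rpl22l1 to Rpl22 (right), with replicate numbers beside the points, and the group mean and SD as the bar beside them (n = 5 each); the dotted line marks equal FPKM. For the Rpl3 pair the Sham points lie between 1.40 and 1.97, the MI points between -3.79 and -0.21 and the GSK points between -1.08 and 0.56, while the groups overlap for the Rpl22 pair.

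Both genes contributed to the difference. Rpl3l, the muscle form, was at 59.6, 112.6, 85.6, 78.0 and 42.9 FPKM in GSK libraries, at 72.2, 10.5, 32.6, 27.3 and 58.3 FPKM in MI libraries, and at 150.0, 186.6, 136.4, 156.7 and 171.2 FPKM in Sham libraries. All GSK and MI libraries lay below the lowest Sham library, and 3 GSK libraries lay above every MI library. MI hearts varied most for their mean, with an SD of 24.8 FPKM around 40.2 FPKM, against 26.5 around 75.8 FPKM in GSK and 19.4 around 160 FPKM in Sham. The difference of log2(FPKM + 1) from a limma fit to all genes was -2.22 ± 0.39 for MI minus Sham, 1.09 ± 0.39 for GSK minus MI and -1.13 ± 0.39 for GSK minus Sham (SE). That fit takes the spread of a gene from all 3 groups together, so its SE is the same in each comparison. With the 2 groups compared fitted alone, the SE for Rpl3l was 0.41, 0.45 and 0.22 in the same order. Without MI replicate 2 the difference of Rpl3l for GSK minus MI was 0.69. Of the 12585 tested genes, 14.2% lay lower in MI than in Sham without overlap, and 7.79% lay lower in GSK than in Sham without overlap.

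Rpl3, the form of most tissues, was at 90.1, 76.6, 73.4, 65.8 and 90.4 FPKM in GSK libraries, at 83.5, 145.6, 116.4, 143.6 and 128.8 FPKM in MI libraries, and at 53.2, 50.6, 51.8, 50.4 and 43.6 FPKM in Sham libraries. Every GSK and MI library exceeded every Sham library, as 15.7% of tested genes did for MI and 10.6% did for GSK. Means were 79.2 ± 10.8 FPKM in GSK, 124 ± 25.3 FPKM in MI and 49.9 ± 3.71 FPKM in Sham (SD, n = 5). The fitted log2 difference was 1.27 ± 0.14 for MI minus Sham, -0.62 ± 0.14 for GSK minus MI and 0.65 ± 0.14 for GSK minus Sham (SE). GSK and MI overlapped through MI replicate 1, which had the lowest Rpl3 and the highest Rpl3l of its group. MI replicate 2 had the highest Rpl3 and the lowest Rpl3l of all 15 libraries. Within the GSK group too, replicates 1 and 5 had the highest Rpl3 and the lowest Rpl3l.

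**Figure D2:**
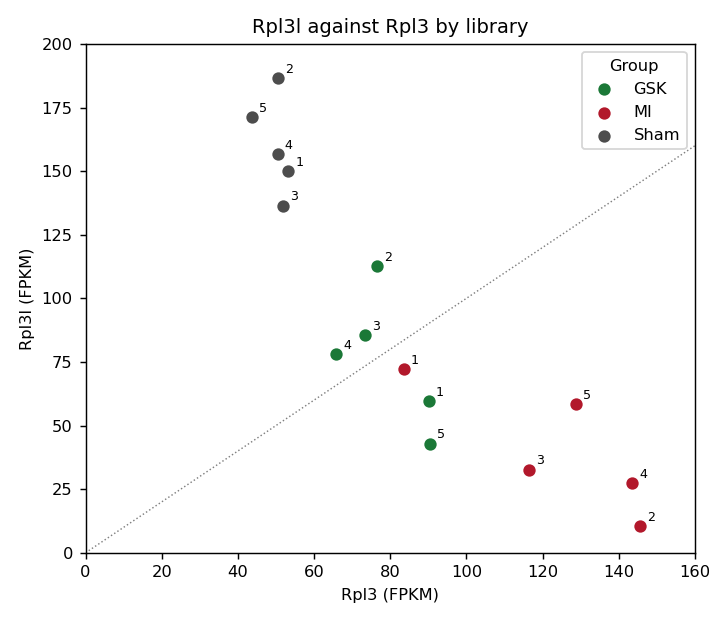
Rpl3l against Rpl3 in each library, both in FPKM on linear axes, with replicate numbers beside the points and the dotted line marking equal levels. The 5 Sham libraries lie at the upper left between 136.4 and 186.6 FPKM of Rpl3l, 4 of the MI libraries at the lower right above 116 FPKM of Rpl3, and the GSK libraries together with MI replicate 1 between them.

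How much of the L3 mRNA pool each form made up depends on the length that is used. The table counts over every annotated exon base of a gene, which is 3175 bases for Rpl3 and 1643 for Rpl3l, whereas the main annotated mRNAs have 1351 and 1375 bases. By the FPKM as deposited, Rpl3l made up 47.9% of the pair in GSK, 24.4% in MI and 76.1% in Sham hearts. With the mRNA lengths in their place, an alternative chosen after the data had been seen, the share was 32.4% ± 9.73 in GSK, 14.8% ± 10.4 in MI and 61.8% ± 4.01 in Sham (SD, n = 5). By either length Rpl3l was the larger part in every Sham library and the smaller part in every MI library. In GSK the reading depended on the length. By FPKM its libraries lay on both sides of equality, but with the mRNA lengths their ratios ran from 0.241 to 0.747, with Rpl3l always the smaller part. A change of length shifts all libraries alike, so the log2 differences between groups stay as they were.

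Fragments of Rpl3-ps1 behaved like those of its parent gene. The pseudogene was at 16.6 ± 1.66 FPKM in GSK, 21.6 ± 6.05 FPKM in MI and 10.4 ± 0.685 FPKM in Sham (SD, n = 5), and its fragments amounted to 5.61% to 9.95% of those of Rpl3 in a library. How fragments that match both were assigned is not given in the sources used here, so its level is uncertain. With its fragments added to Rpl3, the Rpl3l to Rpl3 log2 ratio, MI minus Sham, was -3.53. Rpl3-ps2 and Rpl22-ps1 had at most 25 and 3 fragments in a library.

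Rpl3l had the largest difference of the 4 genes, and the 250 bases before the first of its 2 annotated starts are shown. They lie at chr17:24727576-24727825, plus strand (RefSeq, GRCm38.p6), and reach 6 bases past the start given in the expression table. They were searched on both strands for the E-box CAGCTG, in capitals, for TATAAA and for CATTCC, of which the E-box alone occurs, starting 20 bases before the start. The window before the other start, at chr17:24732435-24732684, holds none of the 3. The E-box occurs in 13.0%, TATAAA in 12.4% and CATTCC in 12.6% of 32851 windows of this kind, and a match of letters is not a binding site.
Rpl3l: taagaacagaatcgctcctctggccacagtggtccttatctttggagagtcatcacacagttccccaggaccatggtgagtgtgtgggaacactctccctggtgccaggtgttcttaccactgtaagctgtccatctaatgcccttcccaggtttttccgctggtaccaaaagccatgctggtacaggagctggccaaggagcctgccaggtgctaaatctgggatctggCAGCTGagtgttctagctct

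The Rpl22 pair did not show a switch, in that Rpl22 was the larger part by FPKM in every library and the groups overlapped in every comparison. Rpl22l1 was at 7.03, 5.55, 2.72, 2.996 and 5.88 FPKM in GSK libraries, at 6.07, 11.2, 6.95, 5.00 and 8.79 FPKM in MI libraries, and at 6.23, 5.86, 8.72, 9.29 and 7.11 FPKM in Sham libraries. All 3 groups overlapped, and the lowest values belonged to GSK replicates 3 and 4, which also had the highest mitochondrial shares. Means were 4.83 ± 1.89 FPKM in GSK, 7.61 ± 2.46 FPKM in MI and 7.44 ± 1.51 FPKM in Sham (SD, n = 5). The fitted log2 difference was 0.00 ± 0.23 for MI minus Sham, -0.58 ± 0.23 for GSK minus MI and -0.58 ± 0.23 for GSK minus Sham (SE). Without the 3 libraries that stood apart, Rpl22l1 differed by -0.35 for GSK minus MI and by -0.23 for GSK minus Sham.

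Rpl22 itself varied little. It was at 50.3, 50.9, 40.2, 38.9 and 51.3 FPKM in GSK libraries, at 42.5, 52.7, 57.6, 54.2 and 48.3 FPKM in MI libraries, and at 39.4, 48.3, 45.4, 50.2 and 43.1 FPKM in Sham libraries. Again all groups overlapped, with means of 46.3 ± 6.21, 51.1 ± 5.84 and 45.3 ± 4.25 FPKM in GSK, MI and Sham hearts (SD, n = 5). The fitted log2 differences were 0.17 ± 0.11 for MI minus Sham, -0.14 ± 0.11 for GSK minus MI and 0.03 ± 0.11 for GSK minus Sham (SE). Rpl22l1 made up 9.17% of the pair by FPKM in GSK, 12.9% in MI and 14.1% in Sham. These shares depend on the length used, as the FPKM count 2911 bases for Rpl22 and 1989 for Rpl22l1. Lengths of mRNAs were again tried after the data had been seen, with 552 bases for Rpl22l1. The Sham share was then 8.78% with the 474-base mRNA of Rpl22, but 29.3% with its 2051-base mRNA. The size of the share is therefore uncertain, although Rpl22 stayed the larger part in every library with either mRNA. The log2 ratio of Rpl22l1 to Rpl22 averaged -3.35 ± 0.43 in GSK, -2.80 ± 0.48 in MI and -2.62 ± 0.26 in Sham (SD, n = 5). Its difference was -0.17 ± 0.24 for MI minus Sham, -0.55 ± 0.29 for GSK minus MI and -0.73 ± 0.23 for GSK minus Sham (SE), with overlap each time. Without the 3 libraries that stood apart, the difference for GSK minus Sham was -0.43.

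**Figure D3:**
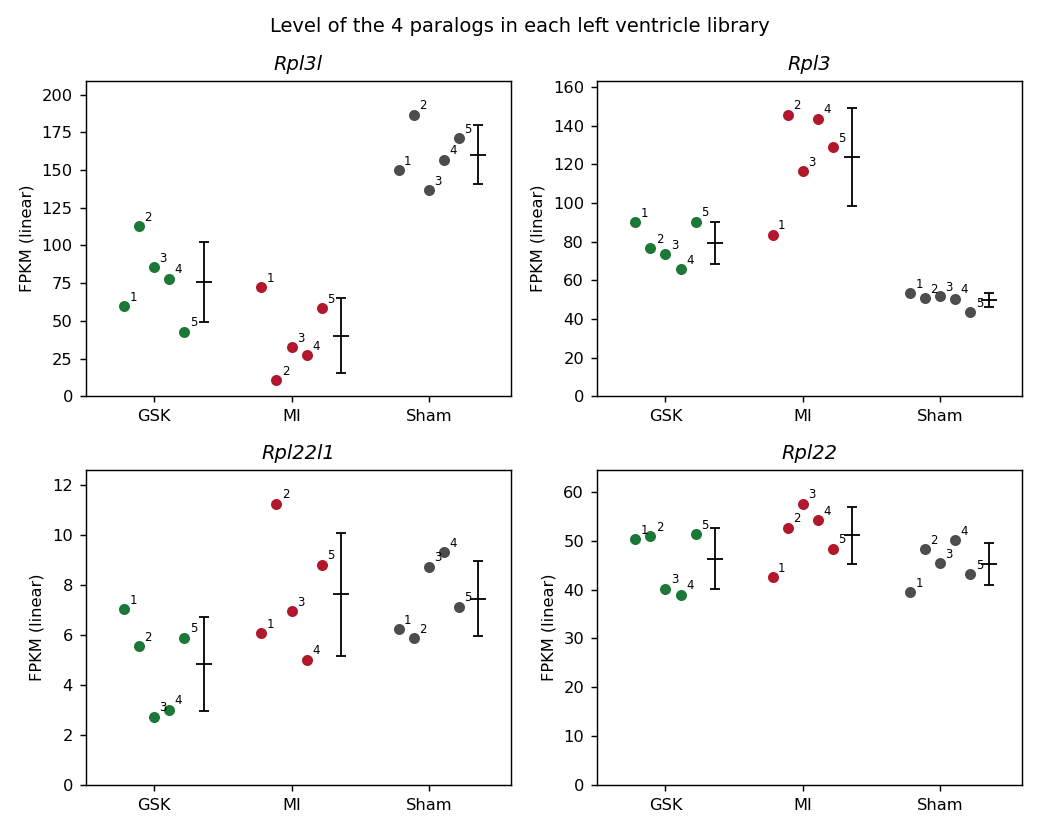
FPKM of the 4 paralogs in each library on linear axes that start at 0, with replicate numbers beside the points and the group mean and SD as the bar beside them (n = 5 each). Rpl3l is lower and Rpl3 higher in every GSK and MI library than in every Sham library, whereas the 3 groups overlap for Rpl22l1 and Rpl22.

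The other cytosolic ribosomal proteins moved little beside the Rpl3 pair. Of 78 such genes, 76 passed the filter. In MI against Sham, 11 of 44 tested large-subunit genes and 15 of 32 small-subunit genes rose and none fell (limma, Benjamini-Hochberg adjusted p under 0.05), where 21.9% of all tested genes were called higher and 21.9% lower. The median log2 difference was 0.25 for the large subunit and 0.34 for the small subunit, against -0.02 over all tested genes. Rps12 of the small subunit rose most, to 58.8 ± 14.9 FPKM in MI, against 33.7 ± 7.63 FPKM in Sham (SD, n = 5), a log2 difference of 0.78 ± 0.17 (SE, limma adjusted p = 0.00240). Rpl29 rose most in the large subunit, to 120.8 ± 25.1 FPKM in MI, against 77.9 ± 5.93 FPKM in Sham (SD, n = 5), a log2 difference of 0.61 ± 0.13 (SE, limma adjusted p = 0.00150). The differences of the 76 genes ran from -0.31 for Rpl23a to 0.78 for Rps12. Rpl3 lay above and Rpl3l below all of them, and Rpl22l1 lay below 69. Taken against the mean log2 level of these 76 genes in each library, Rpl3l differed by -2.53 ± 0.51 and Rpl3 by 1.02 ± 0.17 for MI minus Sham (SE), without overlap. Without the 3 libraries that stood apart, 23 large-subunit and 18 small-subunit genes rose, and without the 2 mixed Sham libraries 6 and 7 did.

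In GSK against MI no gene of all 12585 was called either way (0% higher, 0% lower), with 2638 genes at an unadjusted p under 0.05 and 2 calls by limma voom on the recovered fragments. Without MI replicate 1, 392 genes were called, and without GSK replicate 5, 288 were. GSK lay above MI without overlap for 1.15% of genes and below MI for 0.858%. All 76 other ribosomal protein genes had a negative difference for GSK minus MI, from -0.89 for Rpl7a to -0.02 for Rpl17, with a median of -0.31 in the large and -0.29 in the small subunit, against 0.00 over all tested genes. Without the 3 libraries that stood apart these medians were -0.15 and -0.16, and without MI replicate 1 up to 3 genes of a subunit fell. Rpl3l lay above all 76 of them, and both Rpl3 and Rpl22l1 lay below 75. In GSK against Sham, 10.8% of all tested genes were called higher and 7.58% lower, but none of the 76 was called. Over the alternatives 0 to 4 large-subunit and 0 to 5 small-subunit genes were called there. Their medians were -0.05 and -0.02, and both turned positive under quantile normalization (0.05 and 0.13), with mitochondrially encoded genes left out (0.08 and 0.11) and without the 3 libraries that stood apart (0.16 and 0.14). Rpl3 again lay above and Rpl3l below all 76, and Rpl22l1 lay below 75 of them.

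**Figure D4:**
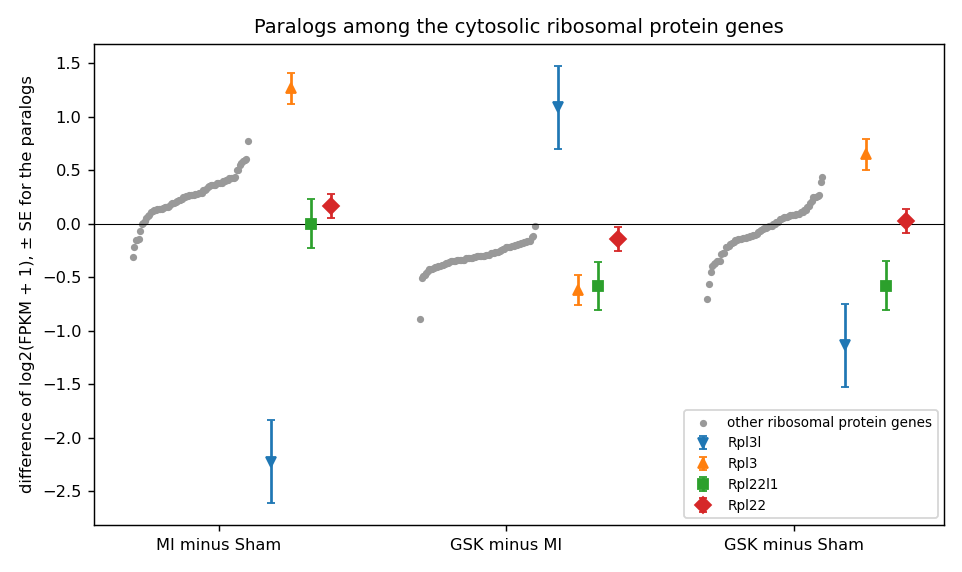
Difference of log2(FPKM + 1) between groups for the 76 other cytosolic ribosomal protein genes (grey points, sorted by value) and for the 4 paralogs (coloured, ± SE from the limma fit), for MI minus Sham, GSK minus MI and GSK minus Sham. Rpl3 (1.27) and Rpl3l (-2.22) lie outside the range of the grey points for MI minus Sham (-0.31 to 0.78), and Rpl22 lies within it.

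Genes that serve the ribosome moved in both directions in MI against Sham, where 21.9% of all tested genes were called higher and 21.9% lower. Of 25 factors that assemble the large subunit, 8 rose and 2 fell (median log2 difference 0.10), and 5 rose without MI replicate 2 or without Sham replicate 5. Grwd1, the chaperone that escorts newly made L3, rose to 7.41 ± 1.78 FPKM in MI, against 5.09 ± 0.613 FPKM in Sham (SD, n = 5; log2 difference 0.45 ± 0.13 SE, limma adjusted p = 0.0135). Mettl18, which methylates a histidine of L3, fell to 1.49 ± 0.218 FPKM in MI, against 2.44 ± 0.559 FPKM in Sham (SD, n = 5; log2 difference -0.46 ± 0.12 SE, limma adjusted p = 0.00622). Eif6, which keeps the large subunit from joining too early, rose by 0.55 ± 0.13, and Rpf1, a factor of ribosomal RNA maturation, fell by 0.23 ± 0.07 on the log2 scale (SE). Of 26 genes for synthesis and processing of ribosomal RNA, 2 rose and 3 fell (median 0.08), and 4 rose without MI replicate 1. Polr1e, a subunit of RNA polymerase I, rose by 0.64 ± 0.13, while Polr1a, its largest subunit, and Taf1a, part of its promoter selectivity factor, differed by -0.39 ± 0.08 and -0.41 ± 0.08 (SE). Of 28 translation factors, 7 rose and 5 fell (median 0.06), while 4 rose without Sham replicate 3 and 3 fell without MI replicate 3. Eef1a1, the elongation factor that brings tRNA to the ribosome, rose to 705 ± 151 FPKM in MI, against 363 ± 33.5 FPKM in Sham (SD, n = 5; log2 difference 0.94 ± 0.17 SE, limma adjusted p = 0.000479). Eif4ebp2, a repressor of the cap-binding factor, fell by 0.62 ± 0.10 on the log2 scale (SE). In GSK against MI none of these 3 lists held a called gene, as none was called among all genes. In GSK against Sham, none of the assembly factors and 1 of the translation factors rose, while 1 assembly factor, 1 gene of ribosomal RNA synthesis and 2 translation factors fell. Over the alternatives these calls numbered 0 to 4 for assembly, 0 to 2 for ribosomal RNA and 0 to 7 for translation factors.

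Several lists of cell type markers differed between MI and Sham hearts, where 21.9% of all tested genes were called higher and 21.9% lower. In MI against Sham, 9 of 18 cardiomyocyte markers fell and 2 rose (median log2 difference -0.44), among them Atp2a2, which pumps calcium back into its store after a contraction, by -1.44 ± 0.25, and Csrp3, a protein of the Z-disc, by 0.57 ± 0.14 (SE). Under quantile normalization 4 fell and 6 rose, with a median of -0.05, and without the filter on low values 5 fell and 1 rose. The summed level of the 18 markers ran from 20269 to 29431 FPKM in GSK, from 16118 to 32016 FPKM in MI and from 25034 to 31923 FPKM in Sham libraries. All 12 macrophage and leukocyte markers rose, with sums of 441 to 999.7 FPKM in GSK, 649 to 1092 FPKM in MI and 305 to 379 FPKM in Sham. All 12 markers of cycling cells rose as well, with sums of 34.4 to 54.2 FPKM in GSK, 41.6 to 72.7 FPKM in MI and 17.5 to 21.6 FPKM in Sham. Of 10 fibroblast markers 6 rose, with sums of 556 to 1893 FPKM in GSK, 841 to 1934 FPKM in MI and 350 to 505 FPKM in Sham, and of 8 endothelial markers 2 rose and 1 fell. Those 2 endothelial rises were lost without MI replicate 1 or 3, or without any of Sham replicates 1 to 4. Of 10 skeletal muscle markers, looked at because skeletal muscle also makes Rpl3l, 3 passed the filter and none was called, with sums of at most 30.1 FPKM in GSK, 16.7 FPKM in MI and 18.0 FPKM in Sham. Without GSK replicate 1, MI replicate 5 or Sham replicate 1 or 2, 1 of the 3 rose. Myh4, a defining gene of fast skeletal fibres, was at 0 in every Sham library. None of the 18 cardiomyocyte markers was at 0 throughout a group, as the heart label requires.

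Rpl3l was also set against the mean log2 level of the cardiomyocyte markers in each library, some of which themselves changed in MI against Sham. Rpl3l then differed by -1.87 ± 0.37 for MI minus Sham and by -0.91 ± 0.19 for GSK minus Sham, without overlap (SE). For GSK minus MI it differed by 0.96 ± 0.41, with overlap (SE). Rpl3 set against the same markers differed by 1.68 ± 0.25 for MI minus Sham and 0.89 ± 0.17 for GSK minus Sham, again without overlap, and by -0.79 ± 0.28 for GSK minus MI (SE). Whether the number of cardiomyocytes had a part in the lower Rpl3l was not tested. The part of macrophages, fibroblasts and cycling cells in the higher Rpl3 was not tested either.

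Other pairs of a muscle form and a broadly expressed form were read in the same way. In all 11 such pairs the log2 ratio of muscle form to broad form was lower in MI than in Sham, by a median difference of -0.93, and in 9 of them the groups did not overlap. Among single genes, 14.2% of the 12585 tested lay lower in MI than in Sham without overlap. No such share was computed for ratios. The pair of Ckm and Ckb, the creatine kinases of muscle and brain, had the lowest difference, at -1.63 ± 0.34, followed by the enolases Eno3 and Eno1 at -1.59 ± 0.37 and the glucose transporters Slc2a4 and Slc2a1 at -1.58 ± 0.51 (SE). The elongation factor pair Eef1a2 and Eef1a1 differed by -1.30 ± 0.34, with overlap (SE). The smallest difference, -0.58 ± 0.13 (SE), was that of Slc25a4 and Slc25a5, the exchangers of ADP and ATP in mitochondria. The difference of the Rpl3 pair, -3.55, lay below all of these. For GSK minus MI, which shares the MI libraries, all 11 differences were positive, from 0.12 to 1.01, and every pair overlapped. For GSK minus Sham all 11 were negative, from -0.99 to -0.33, and 6 did not overlap. Among single genes, 7.79% lay lower in GSK than in Sham without overlap.

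**Figure D5:**
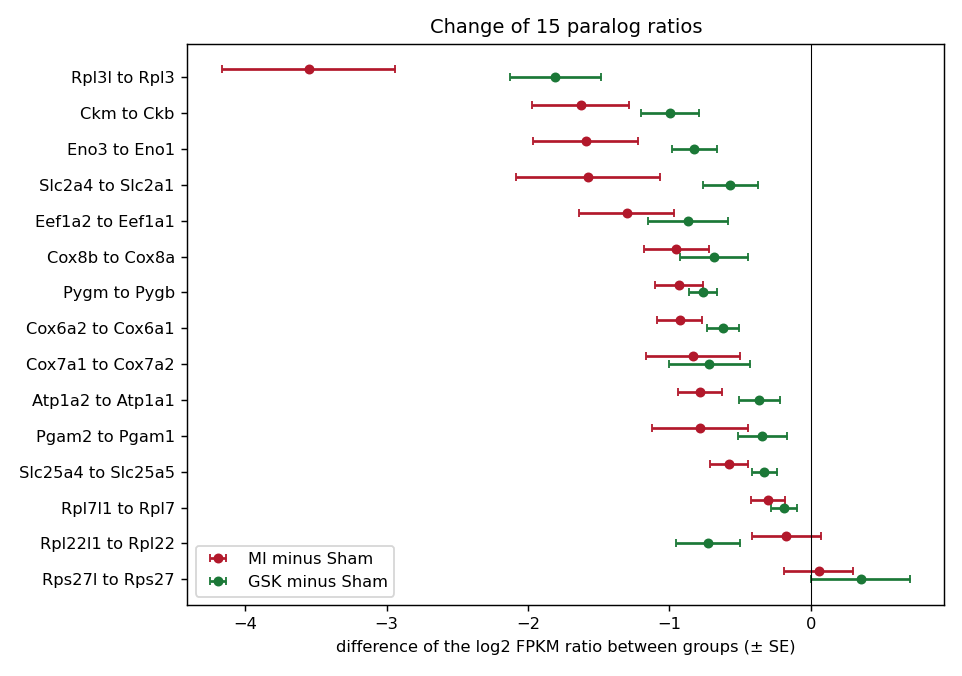
Difference of the log2 ratio of FPKM between groups (± SE, n = 5 each) for 15 pairs of paralogs, muscle form or paralog over broad form, for MI minus Sham (red) and GSK minus Sham (green), sorted by the first. Rpl3l to Rpl3 has the lowest value in both (-3.55 and -1.81), all 11 muscle pairs lie below 0 in both, and Rpl22l1 to Rpl22 lies at -0.17 and -0.73.

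Among further paralogs of ribosomal proteins, the ratio of Rps27l to Rps27 differed by 0.06 ± 0.24 and that of Rpl7l1 to Rpl7 by -0.30 ± 0.12 for MI minus Sham, both with overlap (SE). Rps27l, Rpl7l1 and Rps4l were tested on their own and none was called. Rpl36al and Rpl39l averaged 0.17 and 0.24 FPKM in MI and 0.10 and 0.11 FPKM in Sham, too low for a ratio, and Rpl10l was at 0 throughout.

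The profiles over the 15 libraries that lay nearest to each paralog were taken from 11246 tested protein-coding genes, by the root-mean-square difference of log2(FPKM + 1) after each gene was centred on its mean. Nearest to Rpl3l were Efnb3, a membrane-bound ephrin (0.233), Hrc, a calcium-binding protein of the sarcoplasmic reticulum (0.276), A530016L24Rik (0.279), Cmss1 (0.300) and Kcnip2, a subunit of cardiac potassium channels (0.337), where the median over all genes was 1.11. Efnb3 averaged 20.6 FPKM in GSK, 9.03 FPKM in MI and 34.9 FPKM in Sham, and Hrc averaged 183 FPKM in GSK, 116 FPKM in MI and 344 FPKM in Sham. Nearest to Rpl3 were Galns, a lysosomal sulfatase (0.117), Qsox1 (0.119), Tuba1a, an alpha tubulin (0.128), Prelid1 (0.128) and Actb, cytoplasmic beta actin (0.137), where the median was 0.585. Actb averaged 174 FPKM in GSK, 240 FPKM in MI and 103 FPKM in Sham. Rpl22l1 was nearest to Rplp1, a protein of the ribosomal stalk (0.214), with a median over all genes of 0.507, and Rpl22 to Eif4e2, a cap-binding protein (0.0841), with a median of 0.268. These are descriptions of likeness over libraries that share their groups and scaling.

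Genes beside the paralogs on the chromosome were read as well. Rps2, Ndufb10 and Msrb1 lie within 10 kb of Rpl3l. Rps2 differed by -0.22 ± 0.13 for MI minus Sham (SE, limma adjusted p = 0.206) and Ndufb10, a subunit of respiratory complex I, by -0.65 ± 0.27 (SE, limma adjusted p = 0.0651). Msrb1, a methionine sulfoxide reductase 499 bases downstream on the same strand, rose by 0.46 ± 0.17 (SE, limma adjusted p = 0.0415). Syngr1, a synaptic vesicle protein gene, overlaps the start of Rpl3 by 535 bases on the opposite strand, and the strand setting of the counting is not given in the sources used here. It averaged 11.4 FPKM in GSK, 11.9 FPKM in MI and 13.2 FPKM in Sham, a difference of -0.14 ± 0.11 for MI minus Sham (SE, limma adjusted p = 0.341). The antisense gene Gm33051, which overlaps Rpl22l1 by 220 bases, was listed at 0 in every group. Near the Rpl22 pair, Rnf207 fell by 0.90 ± 0.21 in MI against Sham (SE, limma adjusted p = 0.00342), and Eif5a2, a translation factor beside Rpl22l1, rose by 0.39 ± 0.15 (SE, limma adjusted p = 0.0457).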

How the data were processed

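Poly-A RNA of the left ventricle (1000 ng, RIN above 8) was read as 150 nt paired ends in 15 libraries, per the labels' protocols. The authors deposited FPKM values with gene lengths and coordinates on mm10. HISAT2, featureCounts, DESeq2 and R 3.5.1 are named in the submitters' processing notes without a role or order. The sources used here give neither the annotation nor the strand setting. FPKM times length gave whole fragments for 100% of values within 0.01, and the library scaling equals a median-of-ratios factor, so the authors' FPKM are relative to the median gene. The labels' protocols describe independent mice, apart from the 2 mixed Sham libraries. An animal number is shared by the names of Sham replicate 2 and MI replicate 3, and whether all groups were numbered together is not settled by the labels.

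Genes that reached 1 FPKM in 5 or more libraries were fitted as log2(FPKM + 1), which understates the change of low genes, with limma 3.58.1 in R 4.3.3 (mean trend, 3 group means, Benjamini-Hochberg over 12585 genes, called under 0.05). The fit was tested on simulated data. Ratios use FPKM without a pseudocount, and groups do not overlap where every library of one lies beyond every library of the other. The 4 genes, the gene lists and the pairs were chosen with earlier results of these data known, and differences of the 4 genes carry no p. Named besides them are their pseudogenes, the 5 nearest profiles, up to 2 called genes at either end of each list, the paired genes, and neighbours within 10 kb. Coding sequences came from GENCODE vM21 and the promoter from RefSeq. No 2 libraries of the same group were copies of each other. Libraries of different groups were not compared in this way.

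Alternatives were another pseudocount (0.1), no filter and a filter of 5 FPKM, quantile normalization, totals equalised without mitochondrially encoded genes, a fit of the 2 groups alone, a replicate block, limma voom on recovered fragments, and each library, the 2 mixed Sham libraries or the 3 that stood apart left out. Pseudogene fragments added to Rpl3, and mRNA lengths in place of gene lengths, were chosen after the data had been seen.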

Additional observations from a re-analysis of the deposited data

How the results depend on the processing

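The log2 ratio of Rpl3l to Rpl3 kept its sign under all 17 alternatives and moved by less than the pooled SD of the 2 groups compared. Leaving out a single library of a group cannot move the difference by as much as that SD, whatever the values. For those alternatives, staying within the pooled SD is therefore no check. Some other alternatives could not move the difference at all. For either pair, a ratio of recovered fragments and the replicate block leave the difference of group means as it is. So does leaving out the mixed Sham libraries for GSK minus MI. In both comparisons with Sham, the largest move of the Rpl3l to Rpl3 ratio was above the Sham SD of 0.25. It ran from -3.97 to -3.07 for MI minus Sham, from 1.27 to 2.16 for GSK minus MI and from -2.05 to -1.41 for GSK minus Sham. Leaving out each library in turn gave -3.97 to -3.07, 1.27 to 2.16 and -1.98 to -1.57. The log2 ratio of Rpl22l1 to Rpl22 ran from -0.33 to -0.01, from -0.71 to -0.39 and from -0.88 to -0.43 over 16 alternatives, and from -0.32 to -0.01, -0.71 to -0.41 and -0.85 to -0.59 with each library left out. The sign of the difference in level changed under 8 of 25 alternatives for Rpl22l1 in MI minus Sham, under 1 for Rpl22 in GSK minus MI and under 5 for Rpl22 in GSK minus Sham, and under none for Rpl3l and Rpl3. Of those 25, another filter, a fit of the 2 groups alone and the replicate block cannot change a difference in level. Nor can leaving out a library outside the 2 groups compared.

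The counts of called genes moved more. MI against Sham had 5515 calls, 4692 to 5674 with a library left out, and 3270 with the filter of 5 FPKM, where fewer genes were tested. GSK against MI had 0, against 3 with log2(FPKM + 0.1), 2 with voom and 0 to 392 with a library left out. It had 7 without GSK replicate 1, 288 without GSK replicate 5, 392 without MI replicate 1 and 26 without MI replicate 4. GSK against Sham had 2308, against 1384 with the filter of 5 FPKM, 3477 with the 2 groups fitted alone, 1242 without the mixed Sham libraries and 1185 to 2888 with a library left out. It had 1362 without GSK replicate 1, 1185 without GSK replicate 5, 1310 without Sham replicate 4 and 1365 without Sham replicate 5. With equal library totals after removal of mitochondrially encoded genes, the split of calls was 3314 higher and 1897 lower for MI against Sham, beside 2757 and 2758, and 1960 and 425 for GSK against Sham, beside 1354 and 954. The causes of these moves were not tested.

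Replicate numbers did not pair the libraries: same-numbered libraries correlated in their deviations at -0.41 to 0.49, 2 of 15 pairs over 0.1, and 2 libraries correlated best with their own number. With the replicate block, MI against Sham had 5021 calls, GSK against MI 0 and GSK against Sham 1459. The counts per list in MI against Sham ran from 6 to 23 for the large subunit and from 7 to 19 for the small subunit. At 119 to 626 fragments, Rpl22l1 was the member with the least depth.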
